A study of Mus musculus with 12 samples.

Results

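The comparison described here sets mouse 4T1 cells given OAP2 against 4T1 cells given Oxa, with 3 libraries of each, chosen by the group names in the titles and in the columns of the count table. These 6 libraries are part of a series of 12, in which the other 6 are 3 PBS libraries, whose treatment label reads DMSO, and 3 APAP libraries. The values called PBS below come from columns named CON, a name no label explains, and were matched to PBS because every other column name matches another group, so PBS levels, and the number of each PBS library, rest on that inference. The 4T1 line is a mammary carcinoma line from a BALB/c mouse, and all 4 groups share it, labelled as adherent and wild type. The design text of the series instead speaks of xenografts derived from cells, so whether the cells were taken from a dish or from a tumour is not settled by the sources used here. The labels do not spell out the names Oxa, APAP or OAP2, and give no dose or treatment time. Nothing says that the 3 libraries of a group came from separate cultures or animals, so the variation behind every p-value is that among these libraries alone and may be technical.

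Several of the gene groups below belong to well-known stress pathways. Misfolded protein in the endoplasmic reticulum (ER) activates the sensors ATF6, IRE1 and PERK, which raise chaperones and degradation factors, while PERK and other kinases of the factor eIF2 raise the translation of ATF4, an activator of amino acid transport and synthesis genes. E2F factors drive the genes of DNA replication as cells pass from G1 into S phase. Type I interferon and cytosolic nucleic acid sensors raise a set of antiviral genes through STAT and IRF factors, and the YAP and TAZ coactivators, bound to TEAD factors, raise secreted matrix and growth factor genes in spread or stretched cells.

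The libraries held 64071751 to 71500487 counts, and 67741032 to 71500487 in OAP2 against 64071751 to 66722910 in Oxa. In a principal component analysis of the 6 libraries the first component, with 41% of the variance, placed the 3 Oxa libraries at -30.5 to -20.4 and the 3 OAP2 libraries at 22.4 to 26.4. The second component, with 24.2%, set OAP2 3 at -37.3, apart from OAP2 1 at 17.5 and OAP2 2 at 16.7, so counts and medians of gene lists that changed most without it are also given without it. PBS 2, which enters the shared estimate of the spread, held red blood cell and neutrophil transcripts that the 6 compared libraries lacked: 7 red cell markers summed to 232 FPKM in PBS 2 and to at most 0.37 FPKM in any of the 6. The 9 epithelial markers summed to 1336 to 1466 FPKM (fragments per kilobase of transcript, scaled to the mapped fragments) in OAP2 and 1333 to 1404 FPKM in Oxa, all 9 above 1 FPKM in each group's libraries. The neutrophil, T and NK, B, dendritic, endothelial, fat and muscle markers summed to at most 0.73 FPKM in each of the 6 libraries.

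Of 12036 genes tested, 1557 (12.9%) differed between OAP2 and Oxa, 725 higher (6.02%) and 832 lower (6.91%) in OAP2. A gene was called at an adjusted p below 0.05, where every adjusted p below is from edgeR's quasi-likelihood test with Benjamini-Hochberg adjustment over all 12036 genes, and fold changes are OAP2 over Oxa on the log2 scale of scaled counts. Among the calls, 117 genes were over 2-fold higher and 107 over 2-fold lower, and the median log2 fold change of all tested genes was 0.00098. In FPKM, all 3 OAP2 libraries lay outside the range of the 3 Oxa libraries in 36.1% of the genes, above it in 15.6% and below it in 20.5%. The count of calls was 688 without Oxa 2, 776 without Oxa 1, 891 without Oxa 3, 875 without OAP2 1 and 2743 without PBS 2, and 570 genes were called in each of the 12 fits that left out 1 library.

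**Figure D1:**
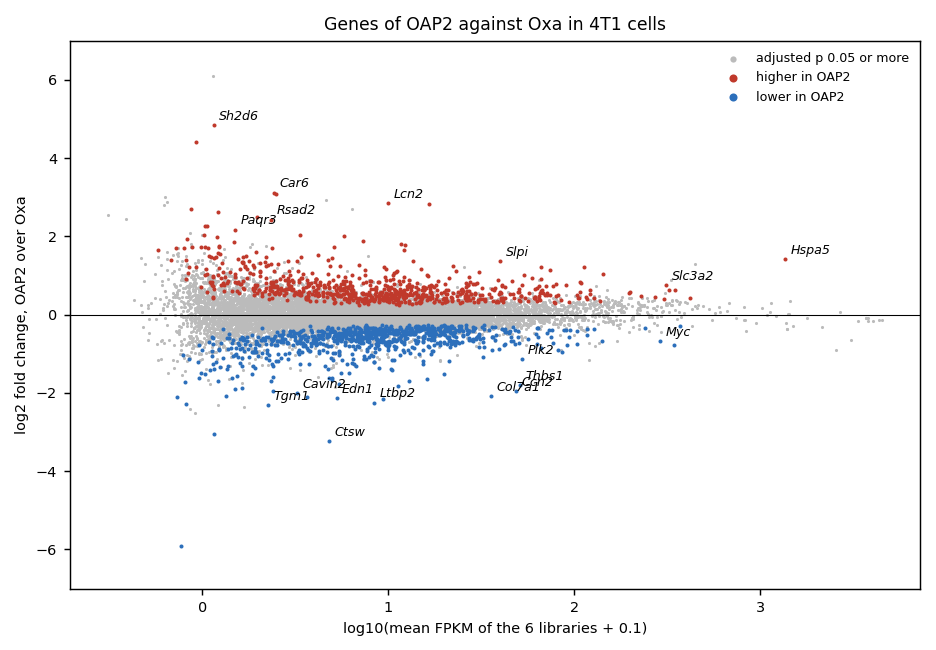
Each point is a tested gene, with the mean FPKM of the 6 libraries on a log10 axis and the log2 fold change of OAP2 over Oxa on the other; 2 genes that were not called lie beyond the range of 7. Red points are the 725 genes higher and blue points the 832 genes lower in OAP2, and Sh2d6, Car6 and Lcn2 lie at the top and Ctsw at the bottom among the named genes.

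Several endoplasmic reticulum chaperone and sensor genes were higher in OAP2 than in Oxa. Of 22 tested genes of the unfolded protein response, 6 rose, none fell and 16 did not pass the test, with a median log2 fold change of 0.28. The called share was 27.3%, against 12.9% of all genes. Hspa5 encodes BiP, the main chaperone of the ER lumen, and lies on chromosome 2 from 34771970 to 34777547 (GRCm38, plus strand). Its level was 2267, 1902 and 1771 FPKM in OAP2 1, 2 and 3 and 814, 699.8 and 729 FPKM in Oxa 1, 2 and 3 (log2 fold change 1.41, SE 0.13, adjusted p = 0.000109). The lowest OAP2 library stood far above the highest Oxa library, and the PBS libraries, at 1187, 1255 and 1122 FPKM, lay between the groups. The ER stress element, CCAAT and CCACG with 9 bases of any kind between them, occurred once in its promoter window, which reaches from 250 bases before to 50 bases after the gene's start, here in lower case with the element in capitals (RefSeq, GRCm38.p6, chr2:34771840-34772139, plus strand).
Hspa5: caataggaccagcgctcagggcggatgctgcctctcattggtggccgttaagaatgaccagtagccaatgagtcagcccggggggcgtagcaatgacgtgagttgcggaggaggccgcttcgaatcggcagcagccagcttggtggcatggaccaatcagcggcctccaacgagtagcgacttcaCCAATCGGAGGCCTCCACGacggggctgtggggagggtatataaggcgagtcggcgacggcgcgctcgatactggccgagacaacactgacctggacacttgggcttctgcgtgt
Searched on both strands, this element stood in 0.119% of 32851 such mouse windows and in 8 of the 19 list members that have a window. It stood in 0.156% of the tested genes that have a window and in 2 of the 5 called members that have one. A match of letters describes the window and is no measure of binding.

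The other called members of the ER list cover its sensors and its degradation branch. Atf6, the sensor that is cut to release a transcription factor, was at 48, 50 and 55.8 FPKM in OAP2 against 30.4, 29.5 and 30.9 FPKM in Oxa (log2 fold change 0.77, SE 0.10, adjusted p = 0.00061). Sel1l, a scaffold of the ER ubiquitin ligase that removes misfolded proteins, was at 48.3, 45.3 and 31.6 FPKM against 20.4, 18.7 and 20.3 FPKM (log2 fold change 1.08, SE 0.18, adjusted p = 0.00226). Wfs1, an ER membrane protein mutated in Wolfram syndrome, was at 17.9, 14.7 and 10.3 FPKM against 7.59, 6.55 and 6.48 FPKM (log2 fold change 1.06, SE 0.18, adjusted p = 0.00265). In these 3 genes OAP2 3 held either the highest value (Atf6) or the lowest (Sel1l, Wfs1) of its group, and no OAP2 value reached the Oxa range. Ero1l, the oxidase that supplies oxidising power to protein folding, listed here among hypoxia genes, had 107, 103 and 94.6 FPKM against 48.2, 40.4 and 49.5 FPKM (log2 fold change 1.15, SE 0.11, adjusted p = 0.000137). Xbp1 (log2 fold change 0.39, adjusted p = 0.0152) and the co-chaperone gene Dnajc3 (0.55, adjusted p = 0.013) also passed, but Xbp1 had no call without OAP2 1 or Oxa 2 (adjusted p = 0.0682 and 0.0502) and Dnajc3 none without Oxa 2 (adjusted p = 0.0517), and the count of rises was 4 without Oxa 2. With both PBS 2 and OAP2 3 left out, 11 of the 22 genes rose.

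Several amino acid stress genes rose as well. Of 26 tested targets of ATF4 and CHOP, 8 rose and none fell (30.8% called, against 12.9% of all genes). The median log2 fold change was 0.26 and became 0.14 without OAP2 3, a fit in which 9 rose. Slc3a2 encodes the heavy chain shared by several amino acid exchangers, and was at 393, 357 and 426 FPKM in OAP2 against 229, 236 and 232 FPKM in Oxa (log2 fold change 0.76, SE 0.11, adjusted p = 0.00106). Asns, asparagine synthetase, was at 213, 225 and 260.4 FPKM against 152, 157 and 169 FPKM (log2 fold change 0.55, SE 0.09, adjusted p = 0.00265). The 3 Oxa values of both genes lay within a narrow range that no OAP2 library entered. Aldh1l2, a mitochondrial folate enzyme, had 3.16, 3.64 and 2.5 FPKM against 0.96, 0.97 and 1.44 FPKM (log2 fold change 1.47, SE 0.23, adjusted p = 0.00156). Ppp1r15a encodes GADD34, which directs a phosphatase to eIF2 and so reverses the block of translation, and its level was 82.8, 76.5 and 85.8 FPKM against 52.5, 53.3 and 53.1 FPKM (log2 fold change 0.63, SE 0.09, adjusted p = 0.0011). Stc2, a secreted stanniocalcin, was at 15.8, 15 and 15.1 FPKM against 8.16, 8.69 and 8.33 FPKM (log2 fold change 0.87, SE 0.13, adjusted p = 0.00139). These 5 genes and Cth kept their calls without any single library, while Psph was not called without Oxa 1 or Oxa 2 (adjusted p = 0.0585 and 0.0604). The core of the C/EBP-ATF composite element, TGATGNAA, is in capitals in the window of Asns (chr6:7693160-7693459, minus strand).
Asns: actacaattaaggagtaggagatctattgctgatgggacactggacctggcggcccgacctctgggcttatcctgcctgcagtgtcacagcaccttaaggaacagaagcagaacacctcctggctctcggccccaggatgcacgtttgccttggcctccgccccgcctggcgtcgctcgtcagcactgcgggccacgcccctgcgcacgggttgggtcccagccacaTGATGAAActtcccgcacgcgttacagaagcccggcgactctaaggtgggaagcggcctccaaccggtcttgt
On either strand this core stood in 3.97% of all windows and in 8 of the 22 members with a window. It stood in 2.56% of the tested genes that have a window and in 2 of the 6 called members that have one.

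Genes that take up cystine and make glutathione, the main thiol of the cytosol, were in part the same ones. Of 14 tested, 5 rose and none fell (35.7% called, against 12.9% of all genes), with a median of 0.15. Cth makes cysteine from cystathionine in the transsulfuration pathway, and its level was 18.3, 17.4 and 26.3 FPKM in OAP2 and 8.89, 8.61 and 10.1 FPKM in Oxa (log2 fold change 1.17, SE 0.16, adjusted p = 0.00061). The PBS libraries, at 26.1, 35 and 27.3 FPKM, were above the Oxa libraries as well. Gss, glutathione synthetase, had 6.1, 6.06 and 7.81 FPKM against 3.83, 4.02 and 4.44 FPKM (log2 fold change 0.71, SE 0.14, adjusted p = 0.00522). Slc7a11, the cystine transporter that pairs with the Slc3a2 product, was at 16.5, 16 and 11.4 FPKM against 8.61, 7.48 and 8.28 FPKM (log2 fold change 0.86, SE 0.20, adjusted p = 0.0146), and it was not called without OAP2 1, OAP2 2 or Oxa 2 (adjusted p = 0.0591, 0.0512 and 0.0581). Only Cth, Gss and Slc3a2 were called in all fits without 1 library, and the count of rises was 3 without Oxa 2.

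Of 23 detoxification genes linked to the factor NRF2, 5 rose and none fell (21.7% called, against 12.9% of all genes, median 0.09). Nqo1, a quinone reductase, was at 5.29, 5.05 and 4.31 FPKM in OAP2 and 1.65, 1.53 and 2.07 FPKM in Oxa (log2 fold change 1.48, SE 0.22, adjusted p = 0.00123). Srxn1, which repairs oxidised peroxiredoxins, was at 22.1, 20.7 and 21.1 FPKM against 15.2, 14.4 and 16 FPKM (log2 fold change 0.49, SE 0.08, adjusted p = 0.0023). The OAP2 values of both genes lay above all Oxa values. The count was 2 without Oxa 2 (the same 2 genes) and 3 without OAP2 1, Oxa 1 or Oxa 3. Among 10 metallothionein and metal transport genes 2 rose, and the copper exporter gene Atp7a, with 2.86, 3.19 and 2.23 FPKM against 1.76, 1.48 and 1.83 FPKM (log2 fold change 0.71, SE 0.16, adjusted p = 0.0105), held its call without any single library. The copper importer gene Slc31a1 had a log2 fold change of 0.41 (adjusted p = 0.0303) and no call without OAP2 1, OAP2 3, Oxa 1, Oxa 2 or Oxa 3 (adjusted p up to 0.103).

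Some antiviral genes were higher in OAP2, from low levels, and a few were lower. Of 14 tested type I interferon genes, 6 rose, 2 fell and 6 did not pass, with a median log2 fold change of 0.46. The called share was 57.1%, against 12.9% of all genes. Rsad2 encodes viperin, an antiviral radical enzyme, and had 4.96, 3.89 and 2.56 FPKM in OAP2 1, 2 and 3 against 0.85, 0.57 and 0.72 FPKM in Oxa 1, 2 and 3 (log2 fold change 2.42, SE 0.26, adjusted p = 0.000252). Isg15, a ubiquitin-like modifier, was at 21.8, 17.4 and 19 FPKM against 6.88, 7.62 and 8.26 FPKM (log2 fold change 1.36, SE 0.25, adjusted p = 0.00396). OAP2 3 had the lowest Rsad2 value of its group and was still above every Oxa library, and the 3 OAP2 values of Isg15 were close together. Ifih1, the cytosolic sensor of double-stranded RNA known as MDA5, had 4.55, 4.77 and 3.73 FPKM against 1.99, 1.97 and 2.04 FPKM (log2 fold change 1.13, SE 0.14, adjusted p = 0.000478). Oasl2, a relative of the oligoadenylate synthetases, had 2.43, 2.36 and 1.58 FPKM against 0.85, 0.61 and 0.93 FPKM (log2 fold change 1.42, SE 0.24, adjusted p = 0.00265). These 4 were called without any single library, whereas Rtp4, also higher, was not called without OAP2 1, Oxa 1 or Oxa 2 (adjusted p = 0.0678, 0.0526 and 0.0753), nor Ifit1 without OAP2 1, OAP2 2, Oxa 1 or Oxa 2 (adjusted p up to 0.0754). The response was not of 1 direction: Ifit2 fell, with 0.87, 1.07 and 0.72 FPKM in OAP2 and 1.81, 1.54 and 2.19 FPKM in Oxa (log2 fold change -1.05, SE 0.24, adjusted p = 0.013), as did Ddx58. Ifit2 was not called without Oxa 3 (adjusted p = 0.0596), nor Ddx58 without OAP2 1, OAP2 3, Oxa 1, Oxa 2 or Oxa 3 (adjusted p up to 0.131). Samhd1, a nucleotide hydrolase and the single called gene of 14 in nucleic acid sensing and interferon regulation, fell from 10.5, 11.7 and 11.1 FPKM in Oxa to 6.22, 6.58 and 6.46 FPKM in OAP2 (log2 fold change -0.78, SE 0.08, adjusted p = 0.000252). Of that list 7.14% were called, against 12.9% of all genes, and without PBS 2, 3 of its genes fell and 1 rose. Ifi203, of an interferon-inducible family whose close copies can share reads, was at 33.6, 32.1 and 27.6 FPKM against 12.9, 11.6 and 14.8 FPKM (log2 fold change 1.25, SE 0.11, adjusted p = 7.93e-05). The macrophage markers, 12 in number with Cd68, Lyz2 and Cd14 above 1 FPKM, summed to 20.5 to 25.3 FPKM in OAP2 and 16.1 to 20.4 FPKM in Oxa, while Adgre1, Csf1r and the C1q genes stayed at or below 0.42 FPKM; their part in these values was not tested.

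The interferon-stimulated response element, GAAA and GAAA with 2 bases of any kind between them, searched on both strands, is in capitals in the windows of the rising genes Rsad2 (chr12:26456403-26456702, minus strand) and Isg15 (chr4:156200769-156201068, minus strand).
Rsad2: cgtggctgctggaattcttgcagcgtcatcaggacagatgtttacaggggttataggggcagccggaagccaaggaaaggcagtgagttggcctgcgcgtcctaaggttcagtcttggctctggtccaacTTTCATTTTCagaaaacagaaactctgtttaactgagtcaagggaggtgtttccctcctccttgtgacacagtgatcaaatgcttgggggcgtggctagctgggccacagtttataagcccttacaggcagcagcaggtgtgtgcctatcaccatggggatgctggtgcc
Isg15: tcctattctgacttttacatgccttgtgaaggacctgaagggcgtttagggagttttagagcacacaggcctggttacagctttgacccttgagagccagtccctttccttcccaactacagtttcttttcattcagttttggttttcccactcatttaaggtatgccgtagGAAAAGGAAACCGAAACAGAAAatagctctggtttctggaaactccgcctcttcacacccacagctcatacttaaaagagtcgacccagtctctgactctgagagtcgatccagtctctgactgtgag
Rsad2 held 1 match, starting 120 bases before the gene's start, and Isg15 held 3 that overlap one another. This element stood in 3.44% of all windows and in 8 of the 12 interferon genes with a window, Ddx58, which fell, among them. It stood in 3.43% of the tested genes that have a window and in 5 of the 7 called members that have one.

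In the MHC class I pathway 2 of 15 genes rose and 2 fell (26.7% called, against 12.9% of all genes). Tapbpl, a peptide editor, rose with 15.2, 14.3 and 14.1 FPKM against 10.6, 9.54 and 10.1 FPKM (log2 fold change 0.53, SE 0.12, adjusted p = 0.0108) and was the only call there kept without any single library. Tapbp, the tapasin gene, was at 14, 13.1 and 6.34 FPKM in OAP2 and 22.9, 24.4 and 20.2 FPKM in Oxa (log2 fold change -1.01, SE 0.28, adjusted p = 0.0337), and the immunoproteasome subunit gene Psmb10 at 7.15, 7.1 and 6.55 FPKM and 11.3, 10.6 and 10.9 FPKM (log2 fold change -0.65, SE 0.15, adjusted p = 0.0133). Tapbp had no call without OAP2 2, OAP2 3, Oxa 1, Oxa 2 or Oxa 3 (adjusted p up to 0.115) and Psmb10 none without Oxa 1 or Oxa 2 (adjusted p = 0.0593 and 0.0551). Without Oxa 1 or Oxa 2, 1 gene rose and none fell, and the median of -0.16 was 0.08 without OAP2 3 and 0.10 without Oxa 1.

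Of 7 tested secreted defence and complement genes 2 rose and 5 did not pass (28.6% called, against 12.9% of all genes). Lcn2 encodes lipocalin 2, which binds the iron carriers of bacteria, and was at 22.3, 19.2 and 10.7 FPKM in OAP2 1, 2 and 3 against 2.27, 1.71 and 3.28 FPKM in Oxa 1, 2 and 3 (log2 fold change 2.85, SE 0.43, adjusted p = 0.00129). Slpi, a leukocyte protease inhibitor, was at 60, 58 and 54.1 FPKM against 23.6, 20.7 and 22.6 FPKM (log2 fold change 1.37, SE 0.16, adjusted p = 0.000326). OAP2 3 had the lowest value of its group in both genes and was still above all Oxa and APAP libraries. Both calls held without any single library.

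Chemokine genes split. Of 18 tested chemokines and colony stimulating factors, 3 rose and 3 fell, with a median log2 fold change of -0.33. The called share was 33.3%, against 12.9% of all genes. Ccl5, a chemokine of the CC class, was at 12.4, 10.4 and 11.4 FPKM in OAP2 and 2.58, 3.35 and 3.29 FPKM in Oxa (log2 fold change 1.89, SE 0.31, adjusted p = 0.00207). Cxcl10, an interferon-induced ligand of CXCR3, had 4.62, 3.46 and 3.99 FPKM against 2.15, 1.28 and 1.19 FPKM (log2 fold change 1.38, SE 0.25, adjusted p = 0.00329). Both draw T cells and stood above the Oxa range in all OAP2 libraries. The neutrophil attractants moved the other way: Cxcl5 was at 3.98, 3 and 3.18 FPKM against 14.2, 11.6 and 19.6 FPKM (log2 fold change -2.15, SE 0.39, adjusted p = 0.0037). Cxcl3 was at 0.62, 0.62 and 0.33 FPKM against 1.27, 1.78 and 2.11 FPKM (log2 fold change -1.70, SE 0.38, adjusted p = 0.0121). Lif, a cytokine of the interleukin 6 family, fell from 51.6, 48.2 and 41.2 FPKM in Oxa to 28.5, 27.1 and 19.7 FPKM in OAP2 (log2 fold change -0.90, SE 0.19, adjusted p = 0.00792). These 5 calls held without any single library, and Tslp, an epithelial cytokine, rose with 100.2, 74.8 and 104 FPKM against 44.5, 36.2 and 39.2 FPKM (log2 fold change 1.22, SE 0.30, adjusted p = 0.0195) but had no call without OAP2 1, OAP2 3, Oxa 1, Oxa 2 or Oxa 3 (adjusted p up to 0.0777). Without PBS 2, 4 rose and 8 fell.

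**Figure D2:**
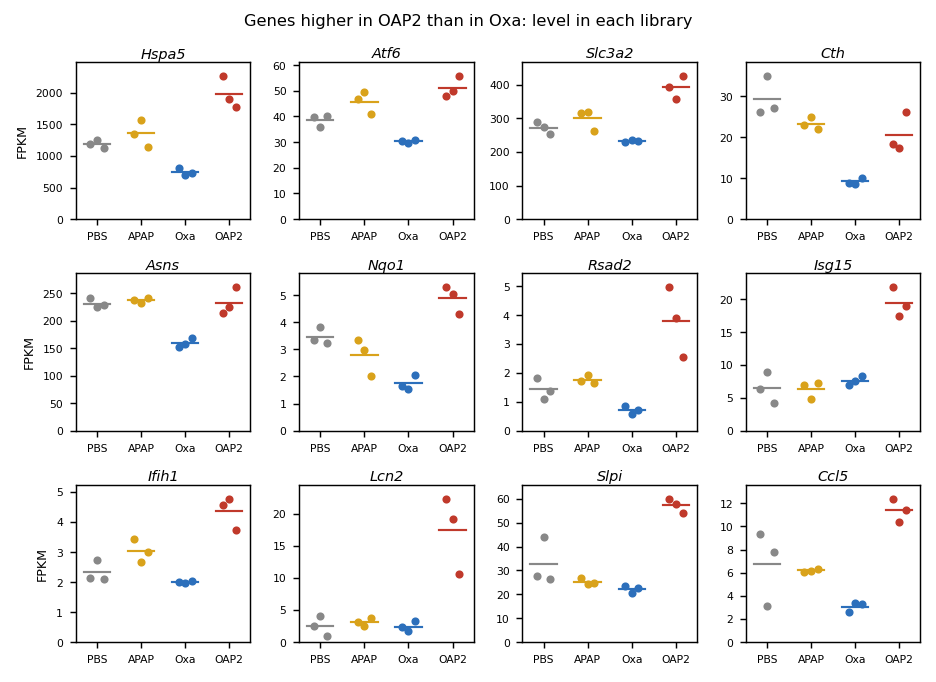
FPKM in each of the 12 libraries (points) with the mean of each group of 3 (bars) for 12 genes higher in OAP2 than in Oxa; each panel starts at 0 and has its own scale. In every panel the 3 OAP2 points lie above the 3 Oxa points, and for Lcn2 and Isg15 the PBS and APAP points overlap the range of Oxa.

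Of 19 NF-kB subunit, inhibitor and target genes 5 fell and none rose (26.3% called, against 12.9% of all genes, median -0.22). Vcam1, an adhesion receptor for leukocytes, was at 3.52, 3.95 and 3.49 FPKM in OAP2 and 7.05, 6.76 and 7.1 FPKM in Oxa (log2 fold change -0.93, SE 0.11, adjusted p = 0.000311). Traf1, an adaptor of tumour necrosis factor receptors, was at 12, 10.6 and 9.71 FPKM against 15.4, 15.2 and 15.6 FPKM (log2 fold change -0.51, SE 0.10, adjusted p = 0.00658). Only these 2 were called in every fit without 1 library, and 2 fell without Oxa 2 or Oxa 3 and 3 without OAP2 1, OAP2 2, OAP2 3 or Oxa 1.

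The genes of DNA replication formed the largest group of falls among the lists. Of 34 tested genes of replication and G1/S, 19 fell, none rose and 15 did not pass, with a median log2 fold change of -0.56. The called share was 55.9%, against 12.9% of all genes. In 30 of the 34 all 3 OAP2 libraries lay below all 3 Oxa libraries, against 20.5% of all tested genes. Cdc6, which loads the replicative helicase onto origins, had 2.2, 2.28 and 1.97 FPKM in OAP2 and 4.32, 4.36 and 3.81 FPKM in Oxa (log2 fold change -0.95, SE 0.20, adjusted p = 0.00835). Pold1, the catalytic subunit of DNA polymerase delta, had 5.82, 5.82 and 4.06 FPKM against 10.2, 10.6 and 9.29 FPKM (log2 fold change -0.94, SE 0.16, adjusted p = 0.00235). Pole, that of DNA polymerase epsilon, had 6.39, 6.88 and 4.66 FPKM against 11.3, 10.6 and 10.7 FPKM (log2 fold change -0.86, SE 0.16, adjusted p = 0.00472). By the fit the OAP2 levels of these 3 were 0.517, 0.523 and 0.551 of the Oxa levels. Pola1, the catalytic subunit of the polymerase that starts new strands, had 5.13, 5.59 and 5.7 FPKM against 7.86, 7.67 and 8.74 FPKM (log2 fold change -0.56, SE 0.09, adjusted p = 0.0023). E2f1, a driver of this gene set, had 4.57, 5.33 and 5.66 FPKM against 8.29, 8.55 and 7.78 FPKM (log2 fold change -0.66, SE 0.13, adjusted p = 0.00603), and the cyclin D1 gene Ccnd1 had 53.2, 61.8 and 58.2 FPKM against 89, 99.2 and 96.8 FPKM (log2 fold change -0.71, SE 0.12, adjusted p = 0.00253). These 6 genes were called without any single library. The helicase subunit genes Mcm2, Mcm3, Mcm5 and Mcm7, looked at after their values were seen, had log2 fold changes of -0.61, -0.69, -0.74 and -0.62 (adjusted p = 0.0244, 0.0193, 0.0163 and 0.0204), and each was lost without several single libraries (adjusted p up to 0.105, 0.0854, 0.0683 and 0.0895). The subunit genes Mcm4 and Mcm6 were not among the 19 called genes. Pcna, the clamp of the polymerases, did not follow the falling genes, with 48.5, 44.6 and 60.3 FPKM against 49.2, 48.2 and 56.4 FPKM (log2 fold change 0.00, SE 0.17, adjusted p = 0.996). The count of falls was 7 without OAP2 1, Oxa 1 or Oxa 2, 8 without Oxa 3, 12 without OAP2 2, 15 without OAP2 3 and 26 without PBS 2, and the median stayed between -0.57 and -0.52 in these fits.

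Set beside PBS, the log2 changes of the 2 groups had opposite signs for Cdc6, Pold1 and Ccnd1. In none of these genes did both groups differ from PBS at an adjusted p below 0.05. The contrasts with PBS share the 3 PBS libraries, PBS 2 among them, so their values are only set side by side. Cdc6 differed from PBS by -0.41 in OAP2 (adjusted p = 0.261) and by 0.54 in Oxa (adjusted p = 0.0983), on the log2 scale. For Pold1 the values were -0.36 in OAP2 (adjusted p = 0.211) and 0.58 in Oxa (adjusted p = 0.0331), so the Oxa libraries were higher than PBS. For Ccnd1 they were -0.60 in OAP2 (adjusted p = 0.0129) and 0.12 in Oxa (adjusted p = 0.567). Hspa5 was higher than PBS in OAP2, by 0.75 (adjusted p = 0.00607), and lower in Oxa, by -0.66 (adjusted p = 0.00825). Rsad2 did likewise, at 1.40 in OAP2 (adjusted p = 0.00691) and -1.02 in Oxa (adjusted p = 0.0235). Isg15 and Lcn2 differed from PBS in OAP2, by 1.59 and 2.78 (adjusted p = 0.00366 and 0.0031), with 0.23 and -0.07 in Oxa (adjusted p = 0.594 and 0.934). For Asns and Cth it was the Oxa libraries that were below PBS, by -0.53 and -1.67 (adjusted p = 0.00581 and 0.000241), with 0.02 and -0.50 in OAP2 (adjusted p = 0.932 and 0.0787).

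The E2F site, searched on both strands in the forms TTTGGCGC, TTTCCCGC, TTTGCCGC and TTTCGCGC, is in capitals in the windows of Cdc6 (chr11:98907901-98908200, plus strand) and Pola1 (chrX:93632106-93632405, minus strand), members of the falling set.
Cdc6: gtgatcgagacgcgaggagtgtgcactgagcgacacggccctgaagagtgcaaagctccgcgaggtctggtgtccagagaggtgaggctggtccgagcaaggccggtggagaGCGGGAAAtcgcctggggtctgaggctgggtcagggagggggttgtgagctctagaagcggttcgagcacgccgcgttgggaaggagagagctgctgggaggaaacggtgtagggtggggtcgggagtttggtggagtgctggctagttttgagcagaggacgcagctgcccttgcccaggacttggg
Pola1: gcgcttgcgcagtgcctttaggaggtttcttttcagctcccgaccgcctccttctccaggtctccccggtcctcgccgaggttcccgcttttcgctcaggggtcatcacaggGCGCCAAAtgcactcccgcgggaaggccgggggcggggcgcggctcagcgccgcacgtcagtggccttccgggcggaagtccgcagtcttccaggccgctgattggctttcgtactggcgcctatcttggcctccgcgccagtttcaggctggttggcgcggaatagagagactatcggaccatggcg
Both windows held 1 match, starting 138 bases before the gene's start. The site stood in 2.26% of all 32851 windows, in at least 1 window of 5.18% of the tested genes that have one, and in 13 of the 26 list members with a window, 10 of which fell. In all, 6 motifs were searched, each against the list whose factor it is known to bind. They were chosen after the gene calls were known, and the 6 printed windows were picked from those that hold a match, so the printed windows show where the letters lie and not how often they occur. The other 2 motifs were the antioxidant response element core, TGACNNNGC, in 9 of the 19 NRF2-linked genes with a window against 16.9% of the tested genes that have one, and the TEAD site GGAATG, in 11 of the 17 YAP and TEAD targets with a window against 13.8%. Among called members with a window they stood in 2 of 5 and in 5 of 7.

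**Figure D3:**
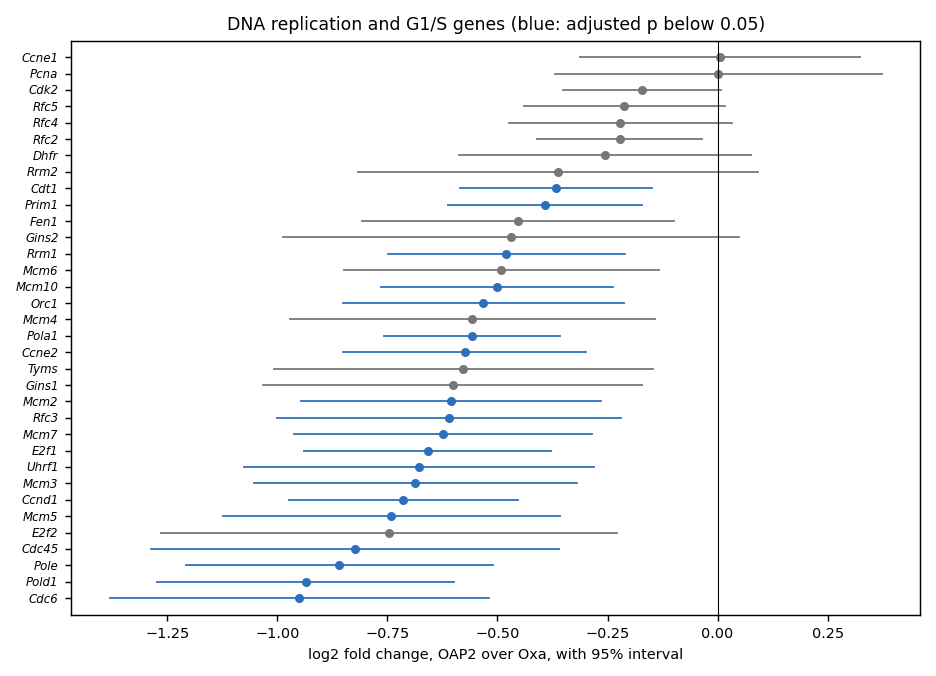
Log2 fold change of OAP2 over Oxa with its 95% interval for the 34 tested genes of DNA replication and G1/S, ordered by size. The 19 called genes, in blue, lie left of 0, from Cdc6 at -0.95, and Pcna lies at 0.00.

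Falls were also called among DNA repair genes, while the mitosis list stood closer to the share of all genes. Of 39 repair genes 8 fell and 2 rose (median -0.26), so 25.6% were called, against 12.9% of all genes. Lig1, the ligase that joins lagging strand fragments, fell from 21.2, 21.6 and 21.1 FPKM in Oxa to 9.39, 10 and 8.72 FPKM in OAP2 (log2 fold change -1.18, SE 0.22, adjusted p = 0.00448). Fancd2 and Fanci encode the 2 partners of the clamp at DNA crosslinks, with log2 fold changes of -0.68 (adjusted p = 0.00614) and -0.87 (adjusted p = 0.00906). Xrcc1, a scaffold of single-strand break repair, fell by 0.58 on the log2 scale (adjusted p = 0.0025). Ercc1 went the other way: this subunit of the nuclease that cuts next to bulky DNA adducts was at 19.5, 18.1 and 19.3 FPKM in OAP2 and 11.9, 12.2 and 10.8 FPKM in Oxa (log2 fold change 0.71, SE 0.13, adjusted p = 0.00314). These 5 calls held without any single library, whereas the falls numbered 4 without OAP2 1 or Oxa 3, 5 without Oxa 2 and 15 without PBS 2. Of 30 mitosis and spindle genes 3 fell, Kif20a, Bub1 and Ect2, and the median was 0.0024. Kif20a, a kinesin of the cleavage furrow, was at 33.9, 36.9 and 38.7 FPKM against 49.6, 46.6 and 53 FPKM (log2 fold change -0.44, SE 0.09, adjusted p = 0.00666) and kept its call without any single library. Bub1 had no call without APAP 1, APAP 2, APAP 3, OAP2 1, OAP2 2, OAP2 3, Oxa 1, Oxa 2, Oxa 3 or PBS 1 (adjusted p up to 0.199), and Ect2 none without OAP2 1, OAP2 2, Oxa 1, Oxa 2 or Oxa 3 (adjusted p up to 0.127).

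The gene with the smallest p of the comparison was Plk2, a polo-like kinase gene that p53 and other stress signals raise, on chromosome 13 from 110395046 to 110400844 (plus strand). Its level was 32.6, 31.7 and 33.7 FPKM in OAP2 1, 2 and 3 and 70.6, 72 and 74.7 FPKM in Oxa 1, 2 and 3 (log2 fold change -1.14, SE 0.08, adjusted p = 3.77e-05). The Oxa libraries resembled PBS, at 62.2, 68.6 and 69.5 FPKM, and the OAP2 level was 0.453 of the Oxa level. Among 23 p53 targets 3 rose and 3 fell (26.1% called, against 12.9% of all genes), with a median of -0.0036. Plk2 and Ccnd1 were the calls kept without any single library. Without OAP2 2 or Oxa 2, 2 of these genes fell and none rose. Cdkn1a, the inhibitor p21, was at 5.25, 4.82 and 3.7 FPKM against 3.02, 2.24 and 2.98 FPKM (log2 fold change 0.75, SE 0.18, adjusted p = 0.0187), and it was not called without OAP2 1, OAP2 2 or Oxa 2 (adjusted p = 0.0757, 0.0577 and 0.0783).

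Of 20 immediate early and growth-linked transcription factor genes, 4 fell, 1 rose and 15 did not pass, with 9 positive and 11 negative values. The called share was 25.0%, against 12.9% of all genes. Without PBS 2, 6 fell and 3 rose. Myc was at 209.8, 218 and 238 FPKM in OAP2 and 355, 368 and 345 FPKM in Oxa (log2 fold change -0.68, SE 0.09, adjusted p = 0.000522). Fosl2, a partner in AP-1, was at 10.1, 11 and 10.7 FPKM against 20.1, 20.2 and 19.2 FPKM (log2 fold change -0.90, SE 0.09, adjusted p = 0.000137). Both had OAP2 values that clustered well below the Oxa values. Ier5 fell by 0.43 on the log2 scale (adjusted p = 0.00704), and these 3 calls held without any single library. Egr1 rose, with 5.91, 5.97 and 3.92 FPKM against 1.47, 1.23 and 1.15 FPKM (log2 fold change 2.04, SE 0.47, adjusted p = 0.0135), and was not called without Oxa 2 or Oxa 3 (adjusted p = 0.0574 and 0.0539). Of 17 genes of dual-specificity phosphatases and Sprouty inhibitors, which MAP kinase signals raise, 3 fell and 1 rose (23.5% called). None of the 4 calls held in every fit without 1 library. No gene of that list was called without Oxa 2, and 6 fell without PBS 2.

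Several secreted and matrix targets of YAP and TEAD were lower in OAP2. Of 21 tested, 7 fell and 2 rose (42.9% called, against 12.9% of all genes), with a median of -0.25. Edn1 encodes the vasoconstrictor endothelin 1, on chromosome 13 from 42301476 to 42307990 (plus strand), and was at 1.98, 1.46 and 2.27 FPKM in OAP2 against 8.75, 8.52 and 8.08 FPKM in Oxa (log2 fold change -2.14, SE 0.28, adjusted p = 0.000582). Ccn2, connective tissue growth factor, was at 22.8, 19.6 and 16.6 FPKM against 86.2, 76.3 and 68.3 FPKM (log2 fold change -1.96, SE 0.43, adjusted p = 0.0111). Thbs1, thrombospondin 1, was at 27.6, 25.7 and 14.7 FPKM against 92.5, 79.3 and 66.4 FPKM (log2 fold change -1.81, SE 0.36, adjusted p = 0.00638). In all 3 the Oxa libraries held more than 2 times the highest OAP2 value. PBS 2 was far above PBS 1 and PBS 3 in these genes, for Ccn2 at 166 FPKM against 39.5 FPKM and 41.7 FPKM. Axl, a receptor kinase for Gas6, was at 85, 80.9 and 64.2 FPKM against 136, 134 and 119.5 FPKM (log2 fold change -0.76, SE 0.11, adjusted p = 0.00129). These 4 calls held without any single library, and 4 genes fell and 1 rose without Oxa 2.

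Of 10 angiogenic ligand genes 4 fell, 1 rose and 5 did not pass (50.0% called, against 12.9% of all genes, median -0.36). Without OAP2 3, 5 fell and none rose. Vegfc, the growth factor of lymphatic vessels, had 2.92, 2.9 and 3.68 FPKM in OAP2 and 8.2, 9.63 and 9.05 FPKM in Oxa (log2 fold change -1.50, SE 0.14, adjusted p = 0.000128). Pdgfb, a growth factor for pericytes and smooth muscle, had 3.89, 3.74 and 3.78 FPKM against 9.08, 9.63 and 8.6 FPKM (log2 fold change -1.26, SE 0.12, adjusted p = 0.000109). Both groups were tight, and the fall of Pdgfb was 2.39-fold. Of 7 caveolins and cavins, which coat the flask-shaped pits of the plasma membrane, 3 fell, none rose and 4 did not pass (42.9% called, median -0.42). Cavin2 was at 1.25, 1.1 and 1.37 FPKM against 4.33, 4.62 and 6.04 FPKM (log2 fold change -2.00, SE 0.17, adjusted p = 6.98e-05), and Cavin1 at 27.8, 30 and 29.5 FPKM against 45, 49.4 and 43.2 FPKM (log2 fold change -0.65, SE 0.12, adjusted p = 0.00338). Cav1, the main coat protein, was at 4.71, 6.7 and 7.58 FPKM against 10.6, 10.7 and 10.5 FPKM (log2 fold change -0.74, SE 0.16, adjusted p = 0.00906), and had no call without Oxa 2 (adjusted p = 0.0501).

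Of 22 collagen, laminin and integrin genes 4 fell, none rose and 18 did not pass (median -0.12, 9 positive values). The called share was 18.2%, against 12.9% of all genes. Without OAP2 3, 4 fell, 2 rose and 13 values were positive, with a median of 0.06. With both PBS 2 and OAP2 3 left out, 6 fell and 7 rose. Col7a1 encodes the anchoring fibril collagen, on chromosome 9 from 108953586 to 108984875 (plus strand), and was at 17.1, 15.4 and 8.03 FPKM in OAP2 against 70.7, 47 and 55 FPKM in Oxa (log2 fold change -2.08, SE 0.26, adjusted p = 0.000439). Lama3, a chain of laminin 332, was at 6.57, 6.45 and 5.61 FPKM against 11.8, 11.1 and 11.5 FPKM (log2 fold change -0.88, SE 0.14, adjusted p = 0.00174). Ltbp2, a matrix protein of elastic fibres outside this list, was at 3.66, 3.51 and 1.45 FPKM against 14.8, 14.1 and 12.3 FPKM (log2 fold change -2.25, SE 0.29, adjusted p = 0.000522). OAP2 3 was the lowest library for all 3 genes, and OAP2 1 and 2 were also below every Oxa library. The calls of these 3 genes held without any single library, and 2 genes of the list fell without Oxa 1.

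Of 9 mesenchymal transition genes 4 fell, none rose and all 9 had negative values, with a median of -0.38. The called share was 44.4%, against 12.9% of all genes. Vim, the intermediate filament vimentin, was at 60.4, 61.4 and 53.1 FPKM in OAP2 and 113, 114 and 111 FPKM in Oxa (log2 fold change -0.95, SE 0.15, adjusted p = 0.00189). The PBS libraries, at 50.2, 72.9 and 44.7 FPKM, were near the OAP2 level. S100a4, a calcium-binding protein of motile cells, was at 8.02, 4.57 and 10.6 FPKM against 27.7, 22.6 and 22.9 FPKM (log2 fold change -1.65, SE 0.29, adjusted p = 0.00284), and here the PBS libraries, at 17.7, 23.1 and 22.9 FPKM, were near the Oxa level. Sparc, a secreted collagen-binding protein, was at 9.69, 8.57 and 8.07 FPKM against 17.9, 17.6 and 16.3 FPKM (log2 fold change -0.97, SE 0.22, adjusted p = 0.0116). These 3 calls held without any single library. The 9 fibroblast markers summed to 0.76 to 1.45 FPKM in OAP2 and 1.68 to 2.04 FPKM in Oxa, with Col3a1, Dcn and Lum at 0 in all 6 libraries and Pdgfra alone above 1 FPKM; their part in these falls was not tested.

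Of 19 epithelial adhesion and tight junction genes 6 rose and 1 fell (36.8% called, against 12.9% of all genes). The median was 0.08, with 9 negative values, and without PBS 2, 7 rose and 4 fell. Epcam, the epithelial cell adhesion molecule, was at 149.6, 142 and 152 FPKM in OAP2 against 103, 90 and 93 FPKM in Oxa (log2 fold change 0.64, SE 0.12, adjusted p = 0.00411) and kept its call without any single library. The claudin genes Cldn7 and Cldn3 had log2 fold changes of 0.50 and 0.41 (adjusted p = 0.0387 and 0.0396). Their calls and those of F11r, Esrp1 and Grhl2 were lost without at least 1 library: 1 gene rose without Oxa 2 or Oxa 3, 2 without OAP2 1, OAP2 3 or Oxa 1, and 3 without OAP2 2 or APAP 1. In keratins and desmosomes 6 of 18 fell and 2 rose (44.4% called). Cdsn, corneodesmosin of the outer skin, rose with 18.5, 17.7 and 17.6 FPKM against 4.28, 5.79 and 5.47 FPKM (log2 fold change 1.80, SE 0.30, adjusted p = 0.00242). Jup, plakoglobin, fell with 13.8, 14.1 and 11.4 FPKM against 21.3, 21.6 and 18.5 FPKM (log2 fold change -0.64, SE 0.13, adjusted p = 0.00674). Tgm1, the transglutaminase of the cornified envelope, fell with 0.72, 0.84 and 0.59 FPKM against 3.66, 3.31 and 3.81 FPKM (log2 fold change -2.31, SE 0.31, adjusted p = 0.000674), and these 3 calls held without any single library. Krt14 was at 1.2, 1.31 and 1.5 FPKM against 5.39, 6.55 and 5.43 FPKM with PBS 2 at 19.9 FPKM (log2 fold change -2.11, SE 0.61, adjusted p = 0.0375), and it had no call without APAP 1, APAP 2, APAP 3, OAP2 1, OAP2 2, OAP2 3, Oxa 1, Oxa 2 or Oxa 3 (adjusted p up to 0.114). The falls of this list numbered 2 without Oxa 1 and 3 without OAP2 1, OAP2 2, Oxa 2 or Oxa 3.

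**Figure D4:**
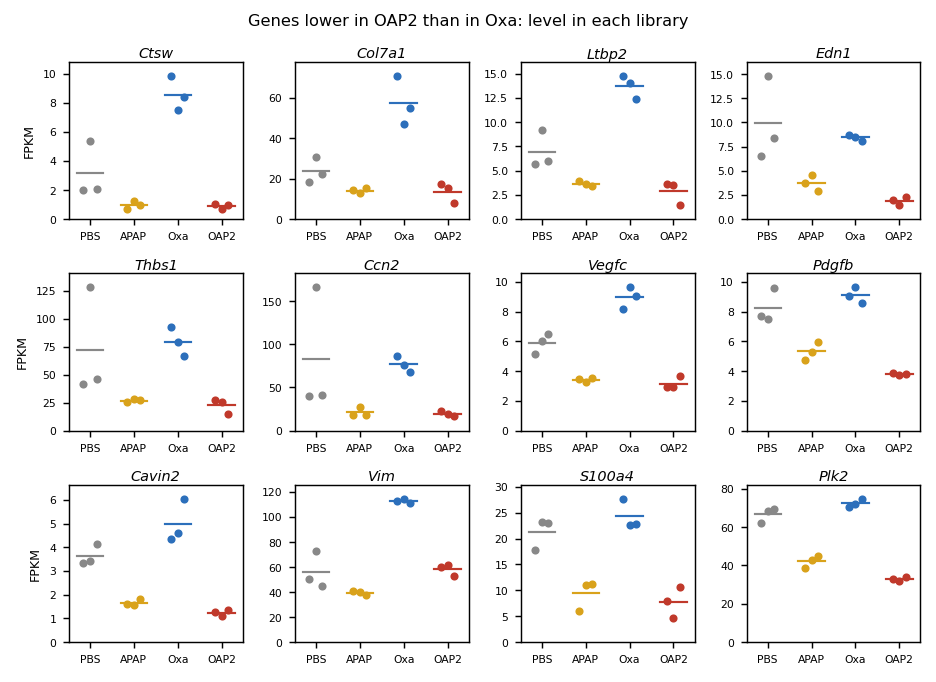
FPKM in each of the 12 libraries (points) with the mean of each group of 3 (bars) for 12 genes lower in OAP2 than in Oxa; each panel starts at 0 and has its own scale. The 3 OAP2 points lie below the 3 Oxa points in every panel, and PBS 2 stands above PBS 1 and PBS 3 for Edn1, Thbs1 and Ccn2.

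Some of the largest fold changes lay outside these groups. Sh2d6, an adaptor gene with an SH2 domain on chromosome 6, had the largest rise among called genes with a mean of at least 2 FPKM in the higher group, with 2.73, 2.18 and 1.22 FPKM in OAP2 against 0.13, 0 and 0.08 FPKM in Oxa and counts of 391, 306 and 182 against 18, 0 and 11 (log2 fold change 4.84, SE 0.67, adjusted p = 0.000734). Car6, a secreted carbonic anhydrase, had 4.38, 3.21 and 4.91 FPKM against 0.43, 0.71 and 0.3 FPKM (log2 fold change 3.12, SE 0.48, adjusted p = 0.00148). Both were nearly silent in Oxa, while PBS held 0.87, 0.5 and 1 FPKM of Sh2d6 and 2.35, 0.79 and 3.9 FPKM of Car6. Paqr3, a Golgi protein that tethers RAF kinases, had 2.84, 2.3 and 1.77 FPKM against 0.51, 0.44 and 0.59 FPKM (log2 fold change 2.17, SE 0.21, adjusted p = 0.000128). Gnpnat1, an enzyme of the hexosamine pathway, had 21.9, 19 and 15.9 FPKM against 4.61, 5.93 and 6.02 FPKM (log2 fold change 1.78, SE 0.23, adjusted p = 0.000582), and Fam171b had 9.26, 8.87 and 9.07 FPKM against 2.18, 2.01 and 2.57 FPKM (log2 fold change 2.01, SE 0.31, adjusted p = 0.0016). Fubp1, which binds single-stranded DNA upstream of MYC, and the transcription termination factor gene Pcf11 rose close to 2-fold, with log2 fold changes of 1.01 and 1.01 (adjusted p = 6.98e-05 and 0.000143).

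By the same rule the largest fall was that of Ctsw, a cathepsin known from T and NK cells, with 1.05, 0.67 and 0.99 FPKM in OAP2 and 9.84, 7.47 and 8.37 FPKM in Oxa (log2 fold change -3.23, SE 0.38, adjusted p = 0.000325). Its PBS values were 2.01, 5.35 and 2.05 FPKM, so the Oxa libraries were the highest of those 3 groups. The listed T and NK cell markers summed to 0 to 0.24 FPKM in OAP2 and 0.3 to 0.73 FPKM in Oxa, nearly all of it Trac, with Cd3d and Nkg7 at 0 in all 6; their part in this fall was not tested. Podnl1, a small leucine-rich repeat protein, had 0.26, 0.69 and 0.45 FPKM against 2.41, 1.81 and 1.83 FPKM (log2 fold change -2.09, SE 0.33, adjusted p = 0.00179), a call that held without any single library like that of Ctsw. Chd3, a subunit of the NuRD chromatin remodeller, fell by 0.77 on the log2 scale (adjusted p = 0.000252), and the hexokinase gene Hk1 by 0.97 (adjusted p = 0.000311).

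Ribosomal protein genes showed how far OAP2 3 could carry a group. Of 81 tested, whose many pseudogenes can share reads, 5 rose and none fell, a share close to the 6.02% of all genes. Their median log2 fold change was 0.27, with 78 positive values, and it was 0.05 without OAP2 3. Rps9 had 247, 215 and 340.1 FPKM in OAP2 1, 2 and 3 and 178, 192 and 208 FPKM in Oxa 1, 2 and 3, so that only OAP2 3 stood far above the Oxa range (log2 fold change 0.48, SE 0.14, adjusted p = 0.038), and it was not called without APAP 1, APAP 2, APAP 3, OAP2 1, OAP2 3, Oxa 1, Oxa 2 or Oxa 3 (adjusted p up to 0.137). Rpl3, the core protein of the large subunit, was at 229, 211 and 276 FPKM against 157, 151 and 169.6 FPKM (log2 fold change 0.59, SE 0.11, adjusted p = 0.00511) and with Rps20 kept its call without any single library. The count of rises was 16 without OAP2 2, 11 without PBS 2, 3 without OAP2 3, Oxa 3 or any 1 APAP library, and 2 without Oxa 1 or Oxa 2. Of 16 small nucleolar RNA host genes, many of which carry the same 5' oligopyrimidine start as ribosomal protein genes, 4 rose and none fell (median 0.37). The called share was 25.0%, against 12.9% of all genes. Snhg12 was at 54, 48.4 and 75.5 FPKM against 31.4, 30 and 36.6 FPKM (log2 fold change 0.87, SE 0.15, adjusted p = 0.0028) and was the only one called in every fit without 1 library. The rises numbered 1 without OAP2 3, Oxa 1 or Oxa 2 and 7 without PBS 2.

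**Figure D5:**
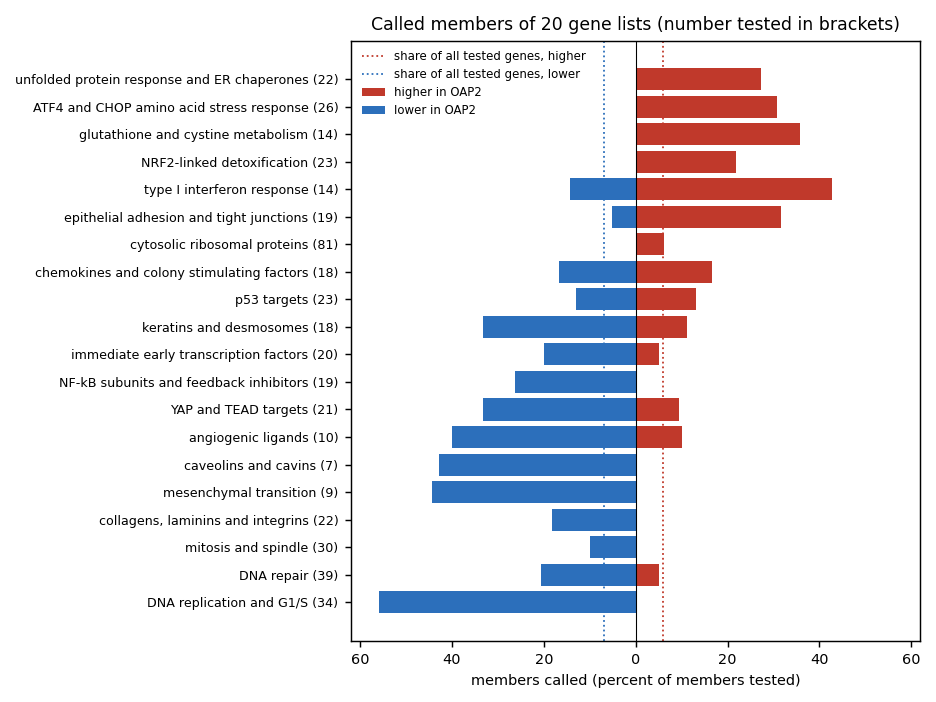
For 20 gene lists, the bars give the percent of tested members called higher (red, to the right) and lower (blue, to the left) in OAP2, with the number tested in brackets and the shares of all 12036 genes, 6.02% and 6.91%, as dotted lines. The list of DNA replication and G1/S genes has the longest blue bar, 19 of 34, and ribosomal proteins sit at the background.

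No gene was called among 9 of prostaglandin synthesis, 16 of death receptors, caspases, gasdermins and necroptosis, or 13 protein genes of mitochondrial DNA. In the death receptor list 12 of 16 values were negative (median -0.18), and 4 genes fell without PBS 2. In the mitochondrial list 12 of 13 values were negative (median -0.14), but 8 were without OAP2 3 (median -0.01) or without Oxa 1 (median -0.03), and 3 genes fell without OAP2 1 (median -0.33). On the mitochondrial chromosome as a whole 7 of 34 genes fell, all outside that list (20.6% called, against 12.9% of all genes). Among them mt-Rnr2, the large ribosomal RNA, was at 311, 234 and 219.8 FPKM in OAP2 and 549.7, 430.2 and 318 FPKM in Oxa (log2 fold change -0.76, SE 0.21, adjusted p = 0.03), in libraries selected by poly(A). It was not called without OAP2 2, OAP2 3, Oxa 1 or Oxa 2 (adjusted p up to 0.152). In the BCL2 family 1 of 11 genes fell (9.09% called), the survival gene Bcl2l1, with 7.43, 9.1 and 8.57 FPKM against 12, 14 and 12.8 FPKM (log2 fold change -0.62, SE 0.14, adjusted p = 0.0124). It was not called without OAP2 1 or Oxa 2 (adjusted p = 0.0577 and 0.0718). Among 26 hypoxia and glycolysis genes 3 rose and 3 fell (23.1% called, against 12.9% of all genes), and 1 rose and 1 fell without any 1 APAP or Oxa library, OAP2 1 or OAP2 2. Among 15 of P-TEFb and 7SK 1 fell, among 46 of nuclear oxidative phosphorylation 1 rose and 1 fell (none and 3 without OAP2 3), and among 31 of autophagy and lysosomes 1 rose and Ctsw fell (5 and 3 without PBS 2). The called shares of these lists, 6.67%, 4.35% and 6.45%, lay below the 12.9% of all genes. Of 21 polycomb genes 3 fell (14.3% called, near the share of all genes), and Phf19 and Phc1, with log2 fold changes of -0.81 and -0.70 (adjusted p = 0.00146 and 0.00523), held without any single library. Of 20 aminoacyl-tRNA synthetases 3 rose and 1 fell (4 rose and 3 fell without PBS 2), and Eprs and Rars, with 0.39 and 0.52 (adjusted p = 0.00682 and 0.00581), held without any single library. Of 10 immune checkpoint genes, not all of them ligands, 2 rose and 1 fell (30.0% called, against 12.9% of all genes). None of these calls held in every fit without 1 library. Cd47 had 27.2, 23.8 and 23.9 FPKM against 19.6, 17.9 and 18.6 FPKM (log2 fold change 0.42, SE 0.10, adjusted p = 0.0139) with no call without OAP2 1 (adjusted p = 0.0616). Tigit, a receptor gene, had 38.2, 45.8 and 70.5 FPKM against 75.4, 81.7 and 73.4 FPKM (log2 fold change -0.57, SE 0.18, adjusted p = 0.0499). It had no call without APAP 1, APAP 2, APAP 3, OAP2 1, OAP2 2, Oxa 1, Oxa 2, Oxa 3, PBS 1 or PBS 3 (adjusted p up to 0.206), and a log2 fold change of -0.87 without OAP2 3.

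Several further lists held calls that did not depend on any single library. Of all tested genes 12.9% were called, and 570 of 12036 in every fit without 1 library. Called shares lay below 12.9% in nucleolar (8.11%), cholesterol (9.52%), proteasome (3.23%) and selenoprotein genes (5.88%). They did so too in translation factors (4.0%) and mitochondrial ribosomal protein genes (3.92%). From 14.3% to 30.0% were called in the splicing, heat shock, iron, fatty acid, plasminogen, long noncoding RNA, metalloproteinase, S100, MYC and hexosamine lists. Of 35 splicing genes 4 rose and 2 fell, with Luc7l3 at 0.56 (adjusted p = 0.00479) and Hnrnpd at -0.65 (adjusted p = 0.00311). In nucleolar ribosome biogenesis 2 of 37 genes rose, Nop14 and Taf1d, and 1 fell, against 4 falls without PBS 2. Of 18 cytosolic heat shock genes 2 rose and 2 fell (no fall without any 1 Oxa library), and the small heat shock gene Hspb8 was at 73, 72.5 and 97.2 FPKM against 53.8, 56 and 55 FPKM (log2 fold change 0.56, SE 0.12, adjusted p = 0.00755). Of 12 iron genes 2 rose and 1 fell, the latter Aco1, whose product binds iron-responsive elements when iron is scarce, with 10.3, 11.5 and 9.73 FPKM against 17.5, 17.7 and 17.4 FPKM (log2 fold change -0.73, SE 0.11, adjusted p = 0.00153). Of 21 cholesterol synthesis genes 2 rose, among them the squalene epoxidase gene Sqle (0.64, adjusted p = 0.00179), while without PBS 2, 4 rose and 5 fell. Of 19 fatty acid genes 1 rose and 2 fell, among them Acadm (-0.45, adjusted p = 0.00814). The calls of these 8 genes held without any single library. A single gene rose in each of 5 lists, namely Psmd8 of 31 proteasome genes, Serpinf1 of 7 plasminogen system genes, Selenoo of 17 selenoprotein genes, Eif2s2 of 25 translation factors and Tug1 of 6 nuclear long noncoding RNAs. The first 3 of these held without any single library, while Eif2s2 and Tug1 did not (adjusted p up to 0.141 and 0.0602). Without PBS 2, 4 selenoprotein genes rose, and 2 translation factor genes rose and 2 fell. Of 51 mitochondrial ribosomal protein genes 2 rose and none fell (median 0.03), but without OAP2 3 none rose and 2 fell (median -0.17), and without any 1 Oxa library none was called. In matrix metalloproteinases and inhibitors 2 of 11 rose and 1 fell, with no call without Oxa 2. In S100 proteins 1 of 10 rose and 2 fell, in the MYC network 1 of 10 rose and 2 fell, and in the hexosamine pathway 1 of 13 rose and 1 fell. The single tested replication-dependent histone gene was not called. Without OAP2 3 the median also changed sign for nuclear oxidative phosphorylation (0.0026 to -0.14), mitosis and spindle (0.0024 to -0.05), proteasome subunits (0.06 to -0.05), translation factors (0.07 to -0.04), nucleolar ribosome biogenesis (0.01 to -0.075), P-TEFb and 7SK (0.04 to -0.06), hypoxia and glycolysis (0.0099 to -0.017), matrix metalloproteinases (-0.03 to 0.09), cholesterol synthesis (-0.06 to 0.007) and p53 targets (-0.0036 to 0.008).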

How the data were processed

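Poly(A) RNA of 4T1 cells was sequenced in pairs from strand-marked libraries, per the labels' protocols, in 4 groups of 3 libraries. Genome build mm9 and the tools DESeq2, edgeR, StringTie 2.1.6, HISAT2 2.2.1 and cutadapt 1.9 are listed, without roles or settings, in the submitters' processing notes. The deposited columns headed count were taken to hold estimated counts per gene, not scaled between libraries by the authors. The column names do not say how the counts were made, and the values were rounded to whole numbers for the test. The deposited FPKM values, which the authors adjusted for transcript length and mapped fragments, were used for levels. The PBS values come from columns named CON, matched by inference to the titles PBS. Of 12024 tested genes matched to GENCODE M21, 86.7% had the same position in GRCm38. Gene positions are therefore given in that build, and only for genes whose positions are the same in both. Promoter windows carry their own GRCm38.p6 positions, also for Isg15, whose gene position was not the same.

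Tests covered the 12036 of 29937 genes that reached an FPKM of 1 in 3 or more of the 12 libraries. The quasi-likelihood test of edgeR 4.0.16 under R 4.3.3 (2-sided, Benjamini-Hochberg threshold 0.05) used TMM factors and a model of group means fitted to all 12 libraries, from which the contrast was taken. SE is the absolute log2 fold change divided by the root of F. The common biological coefficient of variation was 18.1%. Library totals of 64071751 to 71500487 counts limit the precision at low FPKM. Tested on simulated data for this contrast over 12036 genes, the test found 23 of 67 true 1.5-fold changes and 52 of 67 true 2-fold changes. It found 65 of 66 true 4-fold changes, and 8 of 11836 unchanged genes were called. The simulation gave all libraries the same spread for a gene. In the data PBS 2 and OAP2 3 stood apart, with quality weights of 0.13 and 0.24, so these rates may not hold there. The 54 gene lists and the named genes were chosen with earlier results of these data known. Named genes are the 12 largest rises and falls among called genes with groups that do not overlap and a mean of at least 2 FPKM in the higher group, the 6 with the smallest p each way, up to 6 called genes of each list by F, and the most changed called genes of at least 200 FPKM. The 6 promoter motifs replaced a first set of motifs, which was not searched, once the gene calls were known. The result for 1 further gene of the lists is not reported here. Predicted genes were left out. The list members Pcna, Psph, Ddx58, Ifit1 and Esrp1 were named outside these rules. Any other gene, apart from the cell type markers, is said to have been chosen after its values were seen. Close gene copies and overlapping genes can share reads, since the strand setting of the counting is not given. Alternatives were DESeq2 1.42.0, limma 3.58.1, other scalings and filters, fewer libraries, a replicate block and library weights.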

Additional observations from a re-analysis of the deposited data

How the results depend on the processing

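No called gene changed its direction under any alternative. The 1557 calls (725 higher, 832 lower) numbered 1026 without a filter on low values (538 lower), where 28844 genes were tested. They numbered 2531 in the 9 libraries without PBS (1259 higher, 1272 lower), 512 against a 1.2-fold threshold (256 higher, 256 lower) and 3474 with library quality weights (1660 higher, 1814 lower). With PBS 2 and OAP2 3 left out, an alternative added after seeing the data, they numbered 3426 (1680 higher, 1746 lower). Leaving out 1 library gave 688 to 2743 calls, 380 to 1218 higher and 308 to 1525 lower, the ends being Oxa 2 and PBS 2. DESeq2, limma, other scalings, filterByExpr of edgeR and the 6 libraries alone stayed within 1.5 times of the main counts. The share of calls that were higher was 46.6% and became 56.0% with upper quartile scaling. The cause of these shifts was not tested. In OAP2 and Oxa libraries with the same number, deviations from the group means correlated at 0.155, -0.00493 and 0.0663. With 3 libraries per group these values cannot show whether the numbers mark shared batches. A replicate block gave 1421 calls (665 higher, 756 lower). Of 211 called genes among the genes named by rule and those added after their values were seen, 111 were called in each fit without 1 library. In the same set 40 were not called without OAP2 3. Lists enter this set only by up to 6 called genes with the largest F. Of all 1557 calls, 570 held in each fit without 1 library. Low counts, such as those of Sh2d6 at 0 to 18 in Oxa, limit the precision of a fold change.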

Other observations

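Further genes outside the lists, chosen after their values were seen, had calls that held without any single library. Atf5, a transcription factor of the ATF4 branch, was at 151, 157 and 168 FPKM in OAP2 and 63.1, 73.2 and 68.2 FPKM in Oxa (log2 fold change 1.22, SE 0.13, adjusted p = 0.000252). Pycr1, which makes proline in mitochondria, had 6.94, 7.93 and 7.78 FPKM against 3.81, 3.41 and 4.51 FPKM (log2 fold change 0.96, SE 0.18, adjusted p = 0.00411). Oasl1, a close relative of Oasl2, was at 20.3, 18.2 and 16 FPKM against 6.65, 4.31 and 6.51 FPKM (log2 fold change 1.65, SE 0.28, adjusted p = 0.00231), with PBS 2 at 18.2 FPKM, inside the OAP2 range. Mndal, a neighbour and near copy of Ifi203, was at 13.6, 13.9 and 12.4 FPKM against 5.69, 4.94 and 7.23 FPKM (log2 fold change 1.17, SE 0.14, adjusted p = 0.000325). Spp1, the secreted phosphoprotein osteopontin, was at 208, 168 and 198 FPKM against 107, 76.9 and 95.2 FPKM (log2 fold change 1.05, SE 0.19, adjusted p = 0.00388). Erlin1 and Soat2, an ER membrane protein and a cholesterol esterifying enzyme, rose with log2 fold changes of 1.00 and 1.11 (adjusted p = 0.00398 and 0.01). For each of these genes all 3 OAP2 libraries were above all 3 Oxa libraries.

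Signalling ligands and regulators were among the falls of the same kind. Wnt10a, a Wnt ligand, had 5.08, 4.51 and 5.27 FPKM in OAP2 and 11.4, 14.9 and 11.9 FPKM in Oxa (log2 fold change -1.36, SE 0.15, adjusted p = 0.000252). Nrg1, a ligand of ERBB3 and ERBB4, had 1.47, 1.36 and 2.01 FPKM against 3.46, 3.47 and 3.49 FPKM (log2 fold change -1.10, SE 0.14, adjusted p = 0.000478), and Apln, the vascular peptide apelin, 3.89, 3.89 and 6.28 FPKM against 9.73, 10.2 and 10.8 FPKM (log2 fold change -1.12, SE 0.18, adjusted p = 0.00179). Sfn, the 14-3-3 protein sigma, fell by 1.18 on the log2 scale (adjusted p = 0.00122), Bhlhe40 by 1.38 (adjusted p = 0.00265) and Ppp1r12b, a subunit of myosin phosphatase, by 1.78 (adjusted p = 0.000366). Apart from these called falls, Traj32, a joining segment of the T cell receptor alpha locus, was listed at 1.86, 0.68 and 1.47 FPKM in Oxa. It was at 0 in the 3 OAP2 libraries, and PBS held 0.32, 2.56 and 0.8 FPKM. Trac, the constant region of the same locus, was not among the tested genes. Its level was 0.29, 0.5 and 0.73 FPKM in Oxa and 0, 0.24 and 0 FPKM in OAP2. No test result is given for either gene, so these low values are no evidence of a fall. On the mitochondrial chromosome the transfer RNA genes mt-Ta and mt-Tt had log2 fold changes of -1.70 and -1.51 (adjusted p = 0.0187 and 0.0142), with mt-Ta not called without OAP2 1, OAP2 3, Oxa 1 or Oxa 3 (adjusted p up to 0.0699) and mt-Tt not called without OAP2 2 or Oxa 1 (adjusted p = 0.055 and 0.0505).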
